A study of Trachemys scripta elegans with 3 samples.

Results

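Liver transcripts of the red-eared slider (*Trachemys scripta elegans*) that changed in 1 direction along an ordered salinity series were collected into a graded rise and a graded fall. A unigene, a cluster of transcripts assembled de novo that stands for a gene or a piece of one, entered either set when its abundance moved the same way by at least 1.5-fold from 0 to 5 psu and again from 5 to 15 psu. Abundance was given as FPKM, fragments scaled to the length of the unigene and to the mapped reads of the library. The best protein match had to come from *Chrysemys*, *Chelonia*, *Pelodiscus*, *Trachemys* or *Alligator*, all 3 values had to be at least 1 FPKM and the highest at least 10. Of 205118 unigenes, 31658 had such a match and 5621 of these also met both FPKM limits. The graded rise held 29 of the 5621 (0.516%) and the graded fall 36 (0.640%). Relative to beta-actin the same rule gave 22 rises and 51 falls, so the balance of the 2 sets depends on the scaling.

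The turtles were healthy and 2 years old, and were kept for 30 days in fresh water (0 psu, the control) or in saltwater of 5 or 15 psu. Total RNA from the livers of 3 turtles per salinity was mixed into 1 library, so each salinity is 1 measurement of a pool. There is no replicate spread, no test was possible, and a difference between salinities cannot be told apart from a difference between the turtles pooled. Members were chosen by the FPKM values described here, so those values are a description and "rose" and "fell" mean only that the rule was met. The step from 0 to 5 psu spans 5 psu and the step from 5 to 15 psu spans 10 psu.

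The liver secretes most plasma proteins, among them the acute phase proteins, whose output changes during inflammation, and the apolipoproteins, which carry lipid between tissues. It also releases free glucose into the blood through glucose-6-phosphatase and makes hepcidin, a peptide hormone that limits iron export. Besides hepatocytes it holds resident macrophages, lymphocytes, matrix-forming cells and bile duct cells, so bulk liver RNA carries the transcripts of all of them. All 20 hepatocyte markers were found at 1 FPKM or more. No unigene above 0 was matched to any of the 11 pancreas markers. A marker whose name matched no unigene counts the same as one at 0, so this does not show that pancreas transcripts were absent. The libraries summed to between 960385 and 986004 FPKM, and the median log2 ratio over the 5621 unigenes was 0.05 in 0 vs. 5 psu, 0.01 in 5 vs. 15 psu and 0.05 in 0 vs. 15 psu. The beta-actin unigene of the highest FPKM was at 2495, 2548 and 2907 FPKM. Detection was less even: over the whole assembly the 5 psu library had 119996 entries above 0, the control 102765 and the 15 psu library 102228. A level of 1 FPKM or more was reached by 73669, 62612 and 60550 of them, in the same order. The paper's read summary also lists the most clean reads for the 5 psu library. Whether this difference adds to the counts of unigenes highest at 5 psu was not tested. Read counts and unigene lengths were not used, so the depth behind a given FPKM is unknown.

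Fewer unigenes kept their direction over both steps than turned back, but the comparison is unequal by construction. More of the possible orders of 3 values turn back than keep direction. A graded member must also differ by the square of 1.5-fold between 0 and 15 psu, and a reversal need not. The 5 psu library enters both steps with opposite sign, so an error in that library alone would appear as a reversal. In all, 415 unigenes moved by at least 1.5-fold at each step, and 65 of these (15.7%) kept their direction. The others turned back: 189 (3.36%) were highest at 5 psu and 161 (2.86%) were lowest there. Without regard to size, 1233 of the 5621 unigenes rose at both steps (21.9%) and 754 fell at both (13.4%), against 1993 with their highest value at 5 psu and 1631 with their lowest. Of the 149 unigenes at least the square of 1.5-fold higher at 15 than at 0 psu, 29 were graded, and of the 193 lower by as much, 36 were.

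**Figure D1:**
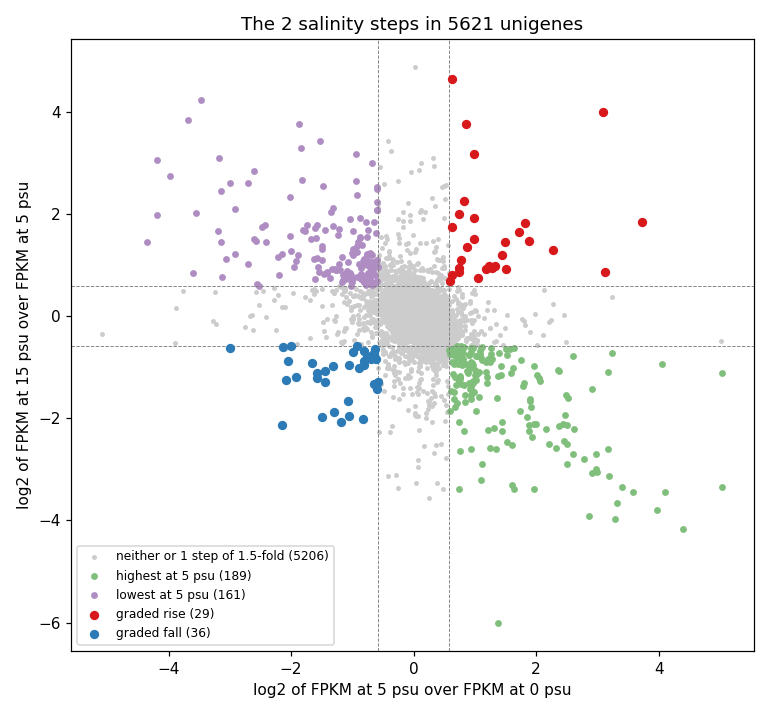
Each point is 1 of 5621 unigenes. The x axis is the log2 ratio of FPKM at 5 over 0 psu, the y axis that of 15 over 5 psu, and dashed lines mark 1.5-fold. The 29 graded rises lie at the upper right and the 36 graded falls at the lower left, while the 189 unigenes highest at 5 psu and the 161 lowest there fill the other corners.

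Members of the graded rise ended between 2.45-fold and 136-fold higher at 15 than at 0 psu, with a median of 6.26-fold. By function, 8 of the 29 belong to defence and immune recognition, 4 to metabolism, 4 to signalling, 6 to the nucleus and RNA, and 7 to other or unknown roles. Their levels were mostly low at the start: the median FPKM was 3.06 in fresh water, 8.10 at 5 psu and 20.5 at 15 psu, and 8 members began below 2 FPKM. Only 6 passed 100 FPKM in any library, and these were PINLY-like, glucose-6-phosphatase, serum amyloid A, the hepcidin-domain unigene, apolipoprotein A-IV and COQ10B. The second step was the larger in 16 members and the first in 13.

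**Figure D2:**
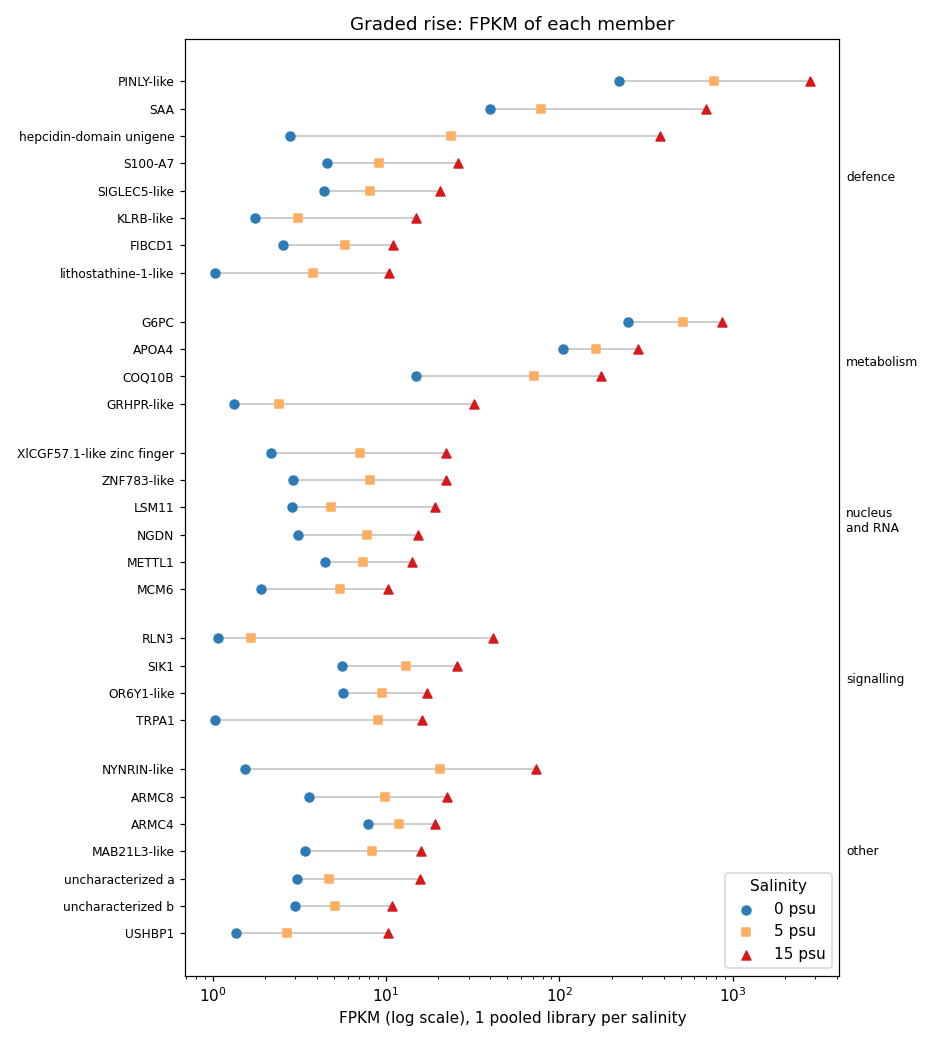
FPKM on a log axis for the 29 members of the graded rise, grouped by function, with 1 marker per salinity and library. Every member runs from 0 psu on the left to 15 psu on the right, from 1.03 FPKM at the lowest to 2782.5 for PINLY-like.

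The largest ratio belonged to c108319_g2, whose FPKM was 2.79 in fresh water, 23.7 at 5 psu and 379 at 15 psu. Its protein match is named tapasin-related protein, but the one domain it carries is hepcidin, and it had no Swissprot or KEGG entry. The annotations therefore conflict, and it is called the hepcidin-domain unigene here. The other hepcidin unigene, c105111_g1, went the other way, with 580 FPKM in fresh water, 370 at 5 psu and 392 at 15 psu. The 2 summed to 583, 393 and 771 FPKM, so the total of hepcidin-domain transcripts was lowest at 5 psu. Near-identical copies can trade reads in a de novo assembly, so how the total divides between these 2 unigenes is uncertain.

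Serum amyloid A (SAA, c106996_g1), an acute phase apolipoprotein of high-density lipoprotein, was at 39.6 FPKM in fresh water, 78.0 at 5 psu and 706 at 15 psu. The first step was 1.97-fold and the second 9.05-fold, so most of its 17.8-fold rise lay between 5 and 15 psu. SAA and the hepcidin-domain unigene were the only graded members among 53 unigenes of the acute phase list. Of those 53, 6 were at least 1.5-fold higher at 15 than at 0 psu and 2 lower, against 8.15% and 8.13% of all 5621. The 6 include the 2 graded members, which were chosen for being higher. The list's median log2 ratio was 0.04 beside 0.05 for all. The fibrinogen chains, haptoglobin and orosomucoid, which are acute phase proteins in mammals, were not graded: haptoglobin (HP), for example, was at 1688, 1366 and 2004 FPKM in that order of salinity.

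The most abundant riser was c118858_g2, matched to the phospholipase A2 inhibitor and Ly6/PLAUR domain protein PINLY. It stood at 221 FPKM in fresh water, 783 at 5 psu and 2782.5 at 15 psu. Its steps of 3.54-fold and 3.55-fold were the most even among the abundant members. A smaller unigene of the same assembly component, c118858_g3, was at 15.1, 9.98 and 57.6 FPKM, lowest at 5 psu. The Ly6/PLAUR fold, a small cysteine-rich domain of secreted and membrane-anchored proteins, was found in 11 of the 5621 unigenes, and 3 of these were graded. Besides PINLY-like, they were 2 fallers described below, so these 3 did not share a direction. Of all 5621 unigenes, 0.516% were graded rises and 0.640% graded falls.

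The other 5 defence members were scarcer. S100-A7, a calcium-binding protein of epithelia and granulocytes, rose from 4.58 to 9.10 and 26.01 FPKM. Of the 5 other S100 family unigenes that could meet the rule, 4 were lower at 15 than at 0 psu. A lithostathine-1-like unigene, of the C-type lectins known from pancreas and gut, stood at 1.03, 3.79 and 10.4 FPKM. Its relatives did otherwise: c116911_g1 was highest at 5 psu (2.36, 77.5 and 35.5 FPKM), and c118633_g1 ended lowest (17.2, 22.5 and 2.33 FPKM). A KLRB-like C-type lectin, of a receptor family of natural killer cells, rose from 1.76 to 3.12 and 14.8 FPKM, a SIGLEC5-like unigene, of the sialic acid-binding receptors of leukocytes, from 4.39 to 8.04 and 20.5, and FIBCD1, an acetyl group-binding receptor, from 2.55 to 5.80 and 10.95.

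Among the metabolic risers, glucose-6-phosphatase (G6PC, c119704_g2), the last enzyme of glucose release, had an FPKM of 249 in fresh water, 514 at 5 psu and 862 at 15 psu. The rise was 2.06-fold and then 1.68-fold. The widely expressed relative G6PC3 (c122630_g1) was at 12.59, 18.03 and 12.96 FPKM. No other unigene of the glucose metabolism list was graded, and of its 18 unigenes G6PC alone was at least 1.5-fold higher at 15 than at 0 psu and 1 was lower, against 8.15% and 8.13% of all 5621. Relative to beta-actin G6PC lost the graded form. Of the proteins that feed G6PC, fructose-1,6-bisphosphatase (FBP1) was at 636, 636 and 761 FPKM, mitochondrial phosphoenolpyruvate carboxykinase (PCK2) at 944, 787 and 798, and the glucose-6-phosphate transporter SLC37A4 at 41.8, 37.8 and 47.3.

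COQ10B, a mitochondrial protein that binds coenzyme Q, was at 14.8 FPKM in fresh water, 71.8 at 5 psu and 175 at 15 psu. Unlike SAA it made its larger step first, 4.85-fold against 2.43-fold. COQ10A, its paralog, was at 2.56, 2.40 and 2.89 FPKM. The other coenzyme Q genes that could meet the rule, COQ4, COQ6 and COQ9, all stayed within 1.5-fold between 0 and 15 psu.

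Apolipoprotein A-IV (APOA4, c109540_g2), a lipid carrier of chylomicrons and high-density lipoprotein, was at 104 FPKM in fresh water, 162 at 5 psu and 284 at 15 psu. The more abundant APOA4 unigene c98843_g1 was at 462, 488 and 515 FPKM, and a further APOA4-like unigene, c111351_g1, at 62.98, 76.55 and 87.99. All 3 were thus in the same order, but the graded one alone reached 1.5-fold at each step. In the RefSeq annotation of the species (assembly CAS_Tse_1.0) APOA5, APOA4, APOC3 and APOA1 are neighbours in that order. APOA5 (c121846_g1), an activator of triglyceride clearance, missed the rule narrowly at 69.6, 115 and 169 FPKM. APOA1, the main protein of high-density lipoprotein, was at 2751, 2403 and 2569 FPKM, and APOC3, a lipase inhibitor, at 2008, 1955 and 1472, so the neighbours did not move together. The fourth metabolic riser, a glyoxylate reductase-like unigene (c116145_g2), was at 1.32, 2.40 and 32.3 FPKM, while the main unigene of that name, c122409_g2, was at 108, 102 and 112.

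The signalling risers were a kinase, a hormone and a pair of receptors or channels. SIK1, a salt-inducible kinase that restrains CREB-driven transcription, was at 5.58 FPKM in fresh water, 13.1 at 5 psu and 25.7 at 15 psu. SIK3 was at 15.2, 14.2 and 13.3 FPKM, and the SIK2 unigenes c123793_g3 and c123793_g5 were at 11.1, 11.0 and 13.6 and at 10.4, 11.2 and 11.5. SIK1 was the 1 graded unigene of 8 in the ion transport list. Relaxin-3 (RLN3), a peptide of the insulin and relaxin family, was at 1.08 and 1.66 FPKM at 0 and 5 psu and at 41.4 at 15 psu, so its graded form rests on values near the FPKM limit of 1. The relaxin receptor unigene c123855_g2 had the same late rise without a graded form, at 2.92, 2.44 and 15.1 FPKM. TRPA1, a cation channel of sensory neurons gated by irritants, was at 1.03, 8.95 and 16.2 FPKM, so it too began near that limit. A second TRPA1 unigene, c121871_g1, was highest at 5 psu, at 0.48, 5.81 and 0.02 FPKM. Both TRPA1 unigenes together summed to 1.51, 14.76 and 16.25 FPKM. An olfactory receptor-like unigene, matched only by its protein name to OR6Y1, was at 5.65, 9.47 and 17.3 FPKM.

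The 6 nuclear and RNA members peaked between 10.24 and 22.14 FPKM. MCM6, a subunit of the helicase that licenses DNA replication, was at 1.90, 5.42 and 10.2 FPKM. Its partners did not follow it: MCM4 was at 9.40, 14.8 and 5.28, MCM7 at 7.46, 11.9 and 8.75, and a second MCM6 unigene, c120262_g3, at 3.12, 1.64 and 2.39. In the cell division list MCM6 was the 1 graded unigene of 9. The others were LSM11 of the U7 particle for histone mRNA processing (2.88, 4.80 and 19.3 FPKM), the neuroguidin gene NGDN (3.10, 7.76 and 15.3), the tRNA methyltransferase METTL1 (4.44, 7.39 and 14.1) and a pair of zinc finger unigenes assigned to the KRAB family. The zinc fingers, c121753_g3 and c105608_g2, ran almost in parallel, at 2.16, 7.08 and 22.1 FPKM and at 2.89, 8.10 and 22.1.

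Of the 7 risers of other or unknown role, the NYNRIN-like unigene c120471_g4 had the second largest ratio of the set, 47.7-fold, at 1.54, 20.5 and 73.5 FPKM. Its Swissprot match is a retroviral Pol polyprotein. Of 37 NYNRIN-like unigenes found above 1 FPKM, it alone could meet the rule, and 3 others reached 10 FPKM in a library while listed at 0 in another. A further one that reached 10 FPKM, c113399_g1, went the opposite way, at 11.45, 0.75 and 0.13 FPKM. USHBP1 was at 1.36, 2.70 and 10.2 FPKM, but its whole assembly component summed to 20.98, 3.96 and 12.18, so the sum was lower at 15 than at 0 psu. ARMC8 was at 3.59, 9.81 and 22.5, and ARMC4 at 7.85, 11.9 and 19.2. The remaining 3 have uncharacterized protein matches and peaked between 10.87 and 15.96 FPKM.

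Members of the graded fall ended between 2.44-fold and 19.6-fold lower at 15 than at 0 psu, with a median of 5.32-fold. The set held 7 unigenes of immunoglobulin and antigen presentation, 7 of defence, 5 of matrix and growth factors, 4 of metabolism, and 13 of other or unknown roles. As for the rise, the shares of these groups among all unigenes are unknown. The median FPKM was 21.9 at 0 psu. Only 4 passed 100 FPKM, an MHC class I-related unigene, LY6E-like, IgY1 and an uncharacterized unigene. The second step was the larger in 19 members and the first in 17.

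**Figure D3:**
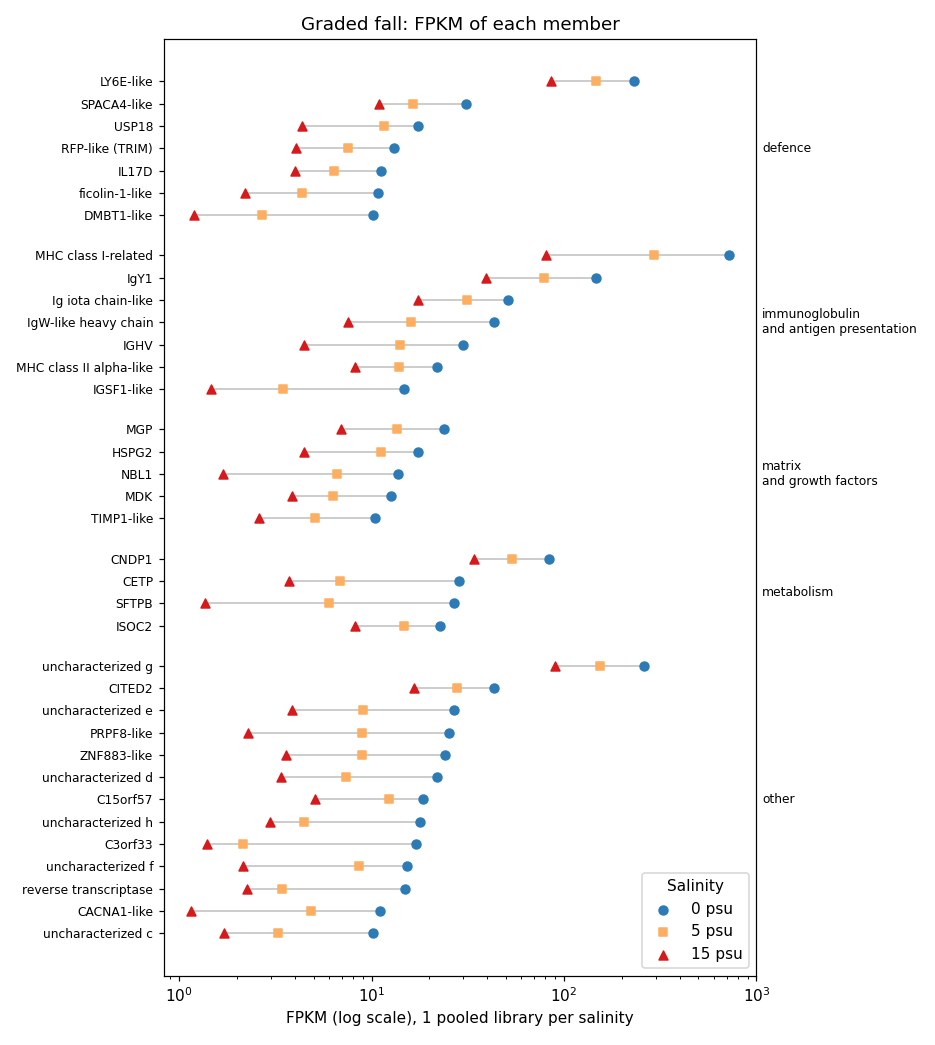
FPKM on a log axis for the 36 members of the graded fall, grouped by function, with 1 marker per salinity and library. The order is reversed from the graded rise, with 15 psu on the left and 0 psu on the right, and values run from 724.93 FPKM for the MHC class I-related unigene down to 1.15 FPKM.

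Antibody transcripts made up 4 of the 36 fallers. IgY1 heavy chain (c112649_g1), of the main serum antibody class of reptiles and birds, was at 146 FPKM in fresh water, 78.9 at 5 psu and 39.2 at 15 psu. A heavy chain unigene with a Swissprot match to IgW (c102329_g1) was at 43.4, 16 and 7.58 FPKM, a heavy chain variable unigene (IGHV, c110764_g2) at 29.8, 14.1 and 4.43, and an immunoglobulin iota chain-like unigene (c110766_g1) at 51.1, 31.5 and 17.5. The immunoglobulin V-set domain was carried by 5 of the 36 fallers, by none of the 29 risers and by 136 of the 5621 unigenes.

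Most of the remaining antibody unigenes that could meet the rule shared the low end at 15 psu but not the graded course. Of 10 such heavy chain unigenes, 9 were lower at 15 than at 0 psu, and their median log2 ratio was -1.19. With the 3 graded members, which were chosen for being lower, 11 of 13 were lower by at least 1.5-fold, where 8.13% of all unigenes were. Of the light chain type that KEGG groups as VPREB, all 7 that could meet the rule but were not graded were lower by at least 1.5-fold. The secreted IgM unigene (c117111_g2) was at 244, 178 and 124 FPKM. The most abundant, an IgY unigene of the form with a shortened Fc (c122510_g2), was at 467, 573 and 170 FPKM, so it was highest at 5 psu. Summed over 29 heavy chain unigenes, FPKM was 1401 in fresh water, 1373 at 5 psu and 526 at 15 psu, and summed over 11 of the VPREB type it was 572, 658 and 234. Both totals were thus lower at 15 psu than in either other library, and neither was lower by 1.5-fold at 5 psu. These unigenes share constant segments and differ in variable ones, so single values are uncertain where the assembly split or merged them.

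Lymphocyte markers moved with these values, but they include the antibody joining chain IGJ, so the 2 are not independent. Their summed FPKM was 333 in fresh water, 271 at 5 psu and 147 at 15 psu, and 12 of the 14 markers were found. IGHM and IGL were not matched by name, although antibody heavy chain unigenes were present. All 6 marker unigenes that could meet the rule were at least 1.5-fold lower at 15 than at 0 psu, against 8.13% of all 5621. Among them were the B-cell receptor subunits CD79A (12.04, 9.55 and 4.60 FPKM) and CD79B (12.4, 8.81 and 5.61) and the T-cell subunit CD3E (62.0, 25.6 and 24.0). IGJ (181, 152 and 64.9) was another, and it made the largest part of the sum. Markers at lower levels did not all follow, and LCK (c115715_g1) was at 4.12, 5.05 and 3.82 FPKM. In bulk RNA fewer lymphocytes and less RNA per lymphocyte cannot be told apart. Erythrocyte markers summed to 560, 747 and 452 FPKM and macrophage markers to 1625, 1481 and 1753. Hepatocyte markers summed to 46181, 33027 and 35347 FPKM and muscle markers to 85.9, 44.5 and 48.7, so both were also lower at 15 than at 0 psu. Bile duct cell markers, 4 of 6 found, summed to 87.8, 76.1 and 39.1 FPKM. The part of cell numbers in the graded fall was not tested.

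**Figure D4:**
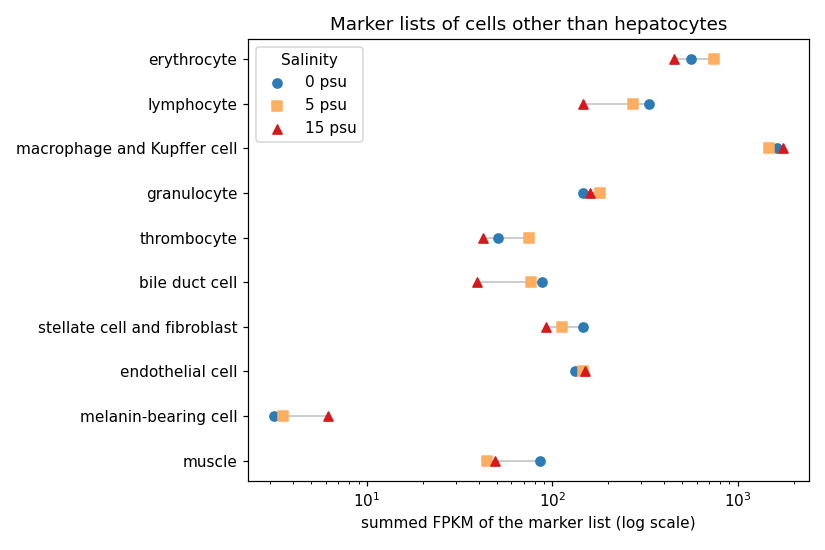
Summed FPKM, on a log axis, of marker lists for cells other than hepatocytes, with 1 marker per salinity and library. Lymphocyte markers go from 333 at 0 psu to 147 at 15 psu in the order of salinity, as do those of stellate cells and fibroblasts (147 to 91.9) and of bile duct cells (87.8 to 39.1), while macrophage markers are lowest at 5 psu.

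Antigen presentation was represented by 2 members. The MHC class I-related unigene c111795_g1 was the most abundant faller, at 725 FPKM in fresh water, 295 at 5 psu and 80.7 at 15 psu. The other dominant class I unigene, c124704_g1, was at 1139, 1400 and 1103 FPKM. Unigenes grouped as class I did not share an order. Of 15 that could meet the rule, 1 was graded, and 5 were highest and 2 lowest at 5 psu by 1.5-fold steps. A further 4 reached 10 FPKM in a library while listed at 0 in another. By protein match the group also holds tapasin (c105165_g1), tapasin-related (c118362_g1) and class II-like (c118502_g1) unigenes. Tapasin was among those highest at 5 psu, as was c113559_g2, which has the protein match of the class II alpha chain-like member. Alleles of class I genes differ between animals and near-identical copies share reads, so these values are uncertain. A class II alpha chain-like unigene (c124741_g2) was at 21.82, 13.95 and 8.20 FPKM. None of the 5 unigenes that KEGG names class II was graded, and the largest of them, c124907_g1, was at 434, 313 and 485 FPKM. An IGSF1-like unigene (c115477_g1), named by its protein match alone, was at 14.7, 3.47 and 1.46 FPKM.

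The 7 defence fallers were led by LY6E-like (c119833_g1), an interferon-induced surface protein in mammals, at 231 FPKM in fresh water, 147 at 5 psu and 85.1 at 15 psu. With the SPACA4-like unigene c119719_g1, at 31.1, 16.4 and 10.9 FPKM, it makes up the 2 fallers with a Ly6/PLAUR domain. The SPACA4-like unigene was counted with defence although its matches name a sperm acrosome membrane protein. A far more abundant SPACA4-like unigene, c108231_g1, was at 1336, 849 and 1764 FPKM. USP18, a protease that removes the ubiquitin-like ISG15 and dampens interferon signalling, was at 17.5, 11.6 and 4.34 FPKM, and it was the 1 graded unigene of 10 in the interferon response list. That list's median log2 ratio of 15 over 0 psu was -0.32, beside 0.05 for all. Of its unigenes, 2 were at least 1.5-fold lower and none higher, against 8.13% and 8.15% of all 5621. USP18, which was chosen for being lower, is 1 of these 2 and also enters the median.

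Ficolin-1-like (c106011_g1), of the lectins that start the complement cascade, was at 10.8, 4.34 and 2.19 FPKM. The abundant ficolin-2-like unigenes c123387_g1 and c123387_g2 were lowest at 15 psu too, at 517, 370 and 342 FPKM and at 344, 254 and 194, with smaller steps. The other 3 ficolin unigenes that could meet the rule were higher at 15 than at 0 psu, such as the ficolin-1-like c115976_g2 at 81.8, 118 and 88.4. A DMBT1-like scavenger receptor unigene (c105524_g1) was at 10.2, 2.71 and 1.19 FPKM, whereas the 7 other DMBT1 unigenes that could meet the rule were all higher at 15 than at 0 psu, such as c116466_g1 at 471, 339 and 664. Of the 7 scarcer ones, 4 were lower at 15 psu, among them c116751_g3, with the same protein match as the member, at 4.20, 2.00 and 0.51. IL17D, a cytokine, was at 11.2, 6.38 and 3.99 FPKM, and an RFP-like unigene of the TRIM ubiquitin ligases (c92293_g1) at 13.1, 7.52 and 4.07. Of 16 unigenes assigned to TRIM39, this was the 1 graded member.

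**Figure D5:**
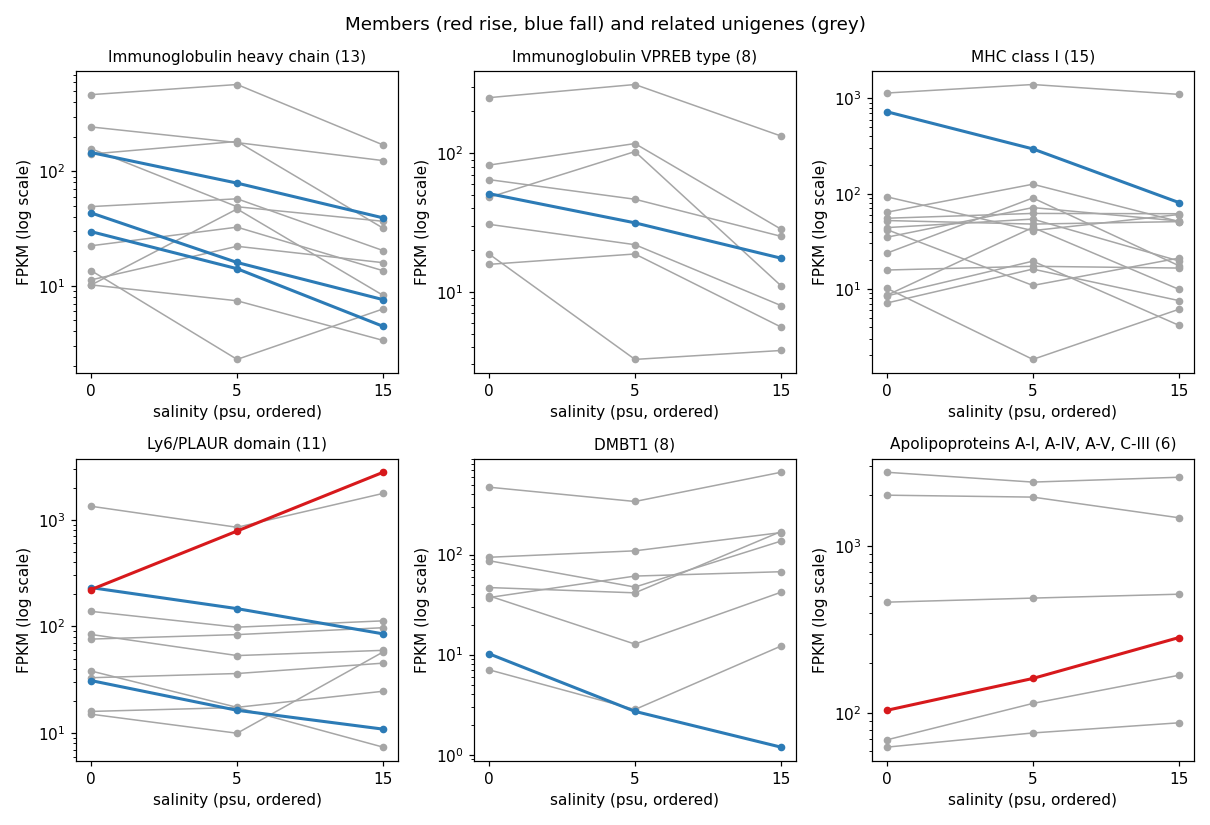
FPKM on a log axis at 0, 5 and 15 psu, with 1 line per unigene that could meet the rule, in 6 families. Graded rises are red, graded falls blue and other unigenes grey. Heavy chain and VPREB-type lines end low at 15 psu, MHC class I lines cross, and in the DMBT1 panel the blue member falls while the 7 grey ones end above their start.

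Of the 5 matrix and growth factor fallers, matrix Gla protein (MGP), an inhibitor of soft tissue calcification, was at 23.7 FPKM in fresh water, 13.5 at 5 psu and 6.95 at 15 psu. A unigene of perlecan (HSPG2), the heparan sulfate proteoglycan of basement membranes, was at 17.5, 11.2 and 4.47 FPKM. The 5 other perlecan unigenes that could meet the rule were all lower at 15 than at 0 psu. TIMP1-like (c111818_g2), an inhibitor of matrix metalloproteinases, was at 10.5, 5.06 and 2.61 FPKM, whereas the larger TIMP1 unigene c111818_g1 was at 31.6, 21.2 and 31.3. NBL1, a secreted BMP antagonist, was at 13.7, 6.61 and 1.70 FPKM, and midkine (MDK), a heparin-binding growth factor, at 12.6, 6.32 and 3.86. Markers of stellate cells and fibroblasts moved with them, summing to 147 FPKM in fresh water, 113 at 5 psu and 91.9 at 15 psu with 6 of 9 found, and COL1A2, the alpha-2 chain of type I collagen, was at 31.5, 16.1 and 11.6. Their part in the fall was not tested.

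The 4 metabolic fallers were unrelated enzymes and carriers. Cholesteryl ester transfer protein (CETP), which moves cholesteryl esters from high-density to other lipoproteins, was at 28.5 FPKM in fresh water, 6.89 at 5 psu and 3.74 at 15 psu. It was the faller among 20 unigenes of the apolipoprotein list, in which APOA4 was the riser, and the list's median log2 ratio was 0.02. The surfactant protein B unigene SFTPB (c90851_g1), of the saposin-fold lipid-binding proteins, had the largest ratio of the set, at 26.9, 6.03 and 1.37 FPKM. A more abundant unigene of the same name, c113214_g1, was at 149, 136 and 109 FPKM. CNDP1, a serum carnosinase that splits the dipeptide carnosine, was at 83.7, 53.95 and 34.3 FPKM. Of the unigenes with a cytosolic dipeptidase protein match, c114476_g1 was at 50.8, 43.1 and 27.7 FPKM, and its Swissprot match is CNDP1. The other, c112205_g1, was nearly level at 38.2, 37.9 and 35.3. ISOC2, a mitochondrial protein of the isochorismatase family, was at 22.6, 14.8 and 8.25 FPKM.

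Among the other fallers, CITED2, a transcriptional co-regulator that limits HIF-1 activity, was at 43.1 FPKM in fresh water, 27.64 at 5 psu and 16.65 at 15 psu. Its paralog CITED4 (c109234_g1) was at 22.2, 25.8 and 20.5. The uncharacterized unigene c114593_g4, which has a GTPase term and no named domain, was the second most abundant faller at 261, 154 and 90.2 FPKM. C3orf33 was at 17.1, 2.15 and 1.40 FPKM, with most of its fall in the first step, and C15orf57 at 18.6, 12.4 and 5.09. A PRPF8-like unigene was at 25.2, 8.97 and 2.28, a CACNA1-like calcium channel unigene at 11.05, 4.85 and 1.15 (32.96, 21.12 and 30.08 summed over its assembly component), a ZNF883-like zinc finger at 24.15, 8.89 and 3.61, and a reverse transcriptase at 15.0, 3.44 and 2.25. Another 5 unigenes without a function were highest at 0 psu, between 10.2 and 26.9 FPKM.

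Both sets were less well annotated than the unigenes they came from. A Swissprot match was present for 22 of 29 risers (75.9%) and 26 of 36 fallers (72.2%), against 92.2% of the 5621, and 4 risers and 10 fallers had no Swissprot, Pfam or KEGG entry (13.8% and 27.8%, against 5.91%). Few shared terms stood behind the rest. SAA and APOA4 among risers and CETP among fallers carried the term for high-density lipoprotein particle, which 8 of the 5621 unigenes have. G6PC and SIK1 were the 2 risers in the KEGG glucagon pathway, which holds 39 of them. Of the 23 function lists examined, 9 held a graded member and no list held more than 2.

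Several members lay close to the limits of the rule. Just inside the rise were ARMC4, with steps of 1.51-fold and 1.62-fold, and APOA4, with 1.55-fold and 1.75-fold. Just outside were a CLEC2A-like lectin unigene (4.82, 7.17 and 12.9 FPKM), the acute phase transcription factor CEBPB (27.7, 40.9 and 107 FPKM), and APOA5. Just inside the fall were an uncharacterized unigene with a second step of exactly 1.5-fold (c113437_g1, at 17.9, 4.47 and 2.98 FPKM) and SPACA4-like. Just outside was an immunoglobulin kappa V unigene (c118391_g1, at 158, 109 and 45.6 FPKM). When FPKM was summed over all unigenes of a member's assembly component, a choice made after the data were seen, 19 risers and 24 fallers were still graded. Only 20 of the 29 risers and 19 of the 36 fallers had another unigene in their component, so the remaining members could not change. The graded form was lost by GRHPR-like, TRPA1, MCM6, SIK1, METTL1, USHBP1, ARMC8, ARMC4 and 2 risers with uncharacterized protein matches, and by CETP, CNDP1, USP18, TIMP1-like, HSPG2, SPACA4-like, PRPF8-like, CACNA1-like, ZNF883-like, the MHC class II alpha chain-like unigene and 2 uncharacterized fallers.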

How the data were processed

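Liver RNA-seq libraries of 3 salinities were compared, 1 library each. Per the labels and the study's methods, the authors assembled trimmed reads de novo with Trinity, quantified unigenes with RSEM over Bowtie alignments (versions not given in the sources used here) and deposited FPKM values to 2 decimals with database annotations. No scaling between libraries was described. A de novo assembly can split a gene into several unigenes or merge copies, which moves FPKM between them. Salinities were taken from the labels, where they are written with a percent sign.

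Ratios and log2 ratios were computed in Python 3.11.15 with pandas 2.3.3 and numpy 2.4.6. The selection code was run on simulated data with planted patterns and no noise. That checks the code and not how the rule behaves on noisy single libraries. A ratio of exactly 1.5 counted as reached. No test was run. Unigenes were matched to lists (23 of functions, 12 of cell markers) by KEGG name or, failing that, Swissprot entry. Some list genes were also matched by other names in these entries, by Pfam domain (such as hepcidin) or by the name of the protein match. The rule for naming took, per direction, the 15 members of largest ratio between 0 and 15 psu (1 per description), those in a list, and those of 100 FPKM or more. The other members were named for completeness after their values were seen, as were the function groups and related unigenes. Members and lists were chosen with earlier results of these data known. Alternatives covered scaling, step size, FPKM limits, protein match, 1 unigene per description and pseudocounts. The study's sequences were not used here. Some results are not reported here.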

Additional observations from a re-analysis of the deposited data

How the results depend on the processing

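Scaling by median ratios and scaling by upper quartiles each left 26 graded rises and 37 graded falls, with 25 risers and 32 fallers shared with the sets described, and APOA4, RLN3, ARMC4, SPACA4-like and C3orf33 were among those lost. Relative to beta-actin there were 22 rises and 51 falls, and G6PC, MCM6, FIBCD1, USHBP1, ARMC4, lithostathine-1-like and 1 uncharacterized riser lost the graded form. These alternatives could not test the direction of the named members between 0 and 15 psu. Adding 1 FPKM to each value keeps their order. Members were chosen for differing by at least the square of 1.5-fold, which is more than any of the 3 scalings shifted them. The largest shift of a named member was 0.22 on the log2 scale for a scaling and 0.91 with 1 FPKM added.

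The counts followed the limits of the rule, and the FPKM limits also changed how many unigenes could meet it. Steps of at least 25% gave 104 rises, 106 falls, 459 unigenes highest and 370 lowest at 5 psu, and steps of at least 2-fold gave 8, 12, 77 and 58. Without a minimum for the highest FPKM they were 73, 59, 553 and 407 of 14009 unigenes (0.521%, 0.421%, 3.95% and 2.91%). With a minimum of 30 they were 9, 9, 49 and 69 of 2070 (0.435%, 0.435%, 2.37% and 3.33%). With every FPKM at least 5 there were 8 rises, 13 falls and 117 highest at 5 psu of 5336 (0.150%, 0.244% and 2.19%). Without the limit of 1 FPKM, and with 0.1 added, there were 63 rises, 82 falls and 502 highest at 5 psu. These were 0.935%, 1.22% and 7.45% of 6739 unigenes. With 1 unigene per description 23 falls of 4986 unigenes (0.461%) were left. Among those lost were the IgW-like, IGHV and iota chain-like antibody unigenes, the IGSF1-like unigene and the MHC class II alpha chain-like unigene. IgY1 and the MHC class I-related unigene were kept. Among alternatives chosen after the data were seen, 15 vs. 0 psu alone, without the 5 psu library, gave 149 rises and 193 falls, and summing over assembly components left 19 rises. That sum could change only the 20 risers with another unigene in their component. No paired analysis was possible because each salinity has 1 library and no result comes from a test.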

Other observations

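Some unigenes with a reptile match kept a graded order but fell below 1 FPKM in a library, with 0.1 FPKM added to each value for the ratios. There were 35 such rises, 28 of them listed at 0 in a library, and 49 such falls, 40 of them listed at 0. The most abundant was a perforin-like unigene (c108955_g1, KEGG name PRF1), a pore-forming protein of cytotoxic cells and of innate defence, at 202 FPKM in fresh water, 111 at 5 psu and listed at 0 at 15 psu. Unigenes assigned to RFP-like proteins of the TRIM family by the name of the protein match alone did the same. Of these, c113399_g2 was at 140 and 74.9 FPKM and c107834_g1 at 102 and 28.9 FPKM before being listed at 0. In the other direction, MHC class I unigene c86778_g1 was listed at 0, then at 6.14 and 38.2 FPKM, opposite to the class I member that fell. These 4 were chosen after their values were seen.

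Immediate early and glucocorticoid-responsive genes held no graded member. Of their 17 unigenes, 8 were at least 1.5-fold higher at 15 than at 0 psu and 1 was lower, against 8.15% and 8.13% of all 5621. The list's median log2 ratio was 0.49, beside 0.05 for all 5621 unigenes. KLF15, a glucocorticoid-induced factor of fasting metabolism, was at 8.01, 11.2 and 23.5 FPKM, and SOCS3, a feedback inhibitor of cytokine signalling, at 10.6, 10.2 and 24.0. A unigene for ZFP36 (c102611_g1), which promotes decay of inflammatory mRNAs, was at 50.2, 64.1 and 97.1 FPKM. These 3 were all at least 1.5-fold higher at 15 than at 0 psu, so they do not stand for the rest of the list. In each the second step was the larger.

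Outside the 5 genera, 745 unigenes met the FPKM limits with a match to another organism, and 5 of them rose and 7 fell at both steps.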
